A study of Mus musculus with 16 samples.

Results

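Olfr117, Olfr77, Olfr393 and Olfr1213 are mouse odorant receptor genes, G protein-coupled receptors that olfactory sensory neurons use to detect volatile molecules. They were selected on higher signal in GFP+ cells after 2-octanone at an unadjusted p, with no gene passing adjustment over all genes. They are 4 of 1081 odorant receptor genes and of 19505 named genes on the arrays, and each has 1 probe set. Among the receptors higher in GFP+ cells after 2-octanone, they are the 4 with the smallest p.

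The arrays measured RNA from sorted olfactory mucosa cells of S100a5-tauGFP mice. There were 4 groups: GFP+ cells after 2-octanone, GFP+ cells after vehicle, GFP- cells after 2-octanone and GFP- cells after vehicle. All 24 mice, of both sexes and 7 to 12 weeks old, carried the reporter and spent 40 h singly in chambers under clean air. From 26 h on they received 10 s pulses every 20 min of 2-octanone (a ketone odorant) or of filtered air as vehicle. Each group held 4 arrays, each from a pool of 3 mice, and every pool gave both a GFP+ and a GFP- array. The GFP- fraction is the remainder of the sort and holds other cell types beside neurons. Pooling hides the variation between mice, and a shared number, such as replicate 1, does not by the labels mark a shared day.

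Each mature olfactory sensory neuron typically expresses a single odorant receptor allele. Binding of an odorant activates a G protein, adenylyl cyclase and a cation channel, and repeated activity raises transcription of S100a5, a calcium-binding protein gene. In mice whose GFP is tied to S100a5, neurons that have been active become GFP+, so that RNA of the receptors of responding neurons can be sought in the GFP+ fraction. The same receptor RNA in bulk samples can differ because of fewer cells, of less RNA per cell or of cells carried over between the fractions. These cannot be told apart.

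RefSeq places Olfr117 on mouse chromosome 17, Olfr77 on chromosome 9, Olfr393 on chromosome 11 and Olfr1213 on chromosome 2. Its synonyms put them in 4 sequence families of the MOR nomenclature, MOR256, MOR143, MOR135 and MOR233. The annotated starts of Olfr77 and Olfr1213 lie before introns, and the 250 bases before each are shown because they are where a promoter that the members share would be looked for. Capitals mark matches, on either strand, to TAATTA (a homeodomain core and its own reverse complement), TAATGA (another homeodomain core), CCCNNGGG (the core of sites for Ebf proteins, also its own reverse complement) or TATAAA (the TATA box). The sequences are from RefSeq on GRCm38.p6, at chr9:19916979-19917228 on the + strand for Olfr77 and at chr2:88980268-88980517 on the - strand for Olfr1213.
Olfr77: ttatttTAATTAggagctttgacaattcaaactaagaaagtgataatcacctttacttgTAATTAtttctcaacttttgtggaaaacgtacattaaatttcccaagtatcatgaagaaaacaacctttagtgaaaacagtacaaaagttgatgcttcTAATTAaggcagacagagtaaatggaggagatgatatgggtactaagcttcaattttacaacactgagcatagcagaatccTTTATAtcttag
Olfr1213: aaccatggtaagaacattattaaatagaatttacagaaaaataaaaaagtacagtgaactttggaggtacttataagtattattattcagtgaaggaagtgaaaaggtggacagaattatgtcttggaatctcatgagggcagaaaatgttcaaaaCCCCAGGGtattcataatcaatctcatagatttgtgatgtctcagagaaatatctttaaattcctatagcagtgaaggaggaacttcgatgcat
The Olfr77 window held 3 matches to TAATTA, 93, 191 and 244 bases before the start, and 1 to TATAAA. The Olfr1213 window held 1 match to CCCNNGGG, 94 bases before the start, and none to the other 3 motifs. No motif was thus in both windows. TAATTA was in 17.9% of 926 odorant receptor windows and 4.84% of all 32851 windows, and 3 or more matches were in 4 receptor windows. CCCNNGGG was in 2.59% of receptor windows and 11.8% of all windows. TATAAA was in 39.3% of receptor windows and 12.4% of all windows, and TAATGA in 25.7% of receptor windows and 8.59% of all windows. The Olfr393 gene model begins at its start codon, so the 250 bases before it need not be a promoter; they held 1 match to TAATTA, 3 to TAATGA, of which a pair overlap, and 2 to TATAAA. Olfr117 has no window in the table.

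Values are the authors' normalised signals, read as log2, and the mean of the 23 background probe sets lay between 5.40 and 5.61 on every array. Levels are compared between arrays of the same probe set and not between receptors.

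In GFP+ cells all 4 receptors had higher mean signals after 2-octanone than after vehicle, by 1.18 to 1.77 on the log2 scale. This is the contrast that chose them, so it is given as a description with no test. Olfr117 read 11.85, 12.22, 11.50 and 11.92 in GFP+ cells after 2-octanone (replicates 1 to 4), against 9.70, 10.79, 10.55 and 11.30 in GFP+ cells after vehicle. The 2-octanone arrays all lay above the vehicle arrays, and vehicle replicate 4 came nearest to them. The means were 11.87 ± 0.30 after 2-octanone, against 10.58 ± 0.67 after vehicle (SD, n = 4 each), a difference of 1.29 (SE 0.26) or 2.44-fold.

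Olfr77 read 7.79, 8.33, 9.34 and 8.93 in GFP+ cells after 2-octanone, against 5.43, 7.56, 7.91 and 6.59 after vehicle. The groups overlapped, since 2-octanone replicate 1 lay below vehicle replicate 3. Vehicle replicate 1 was at the background of its array (5.60). The means were 8.60 ± 0.68 after 2-octanone, against 6.87 ± 1.11 after vehicle, a difference of 1.72 (SE 0.42) or 3.31-fold.

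Olfr393 read 8.81, 8.45, 8.52 and 9.99 in GFP+ cells after 2-octanone, against 7.35, 7.72, 7.81 and 8.18 after vehicle. The groups did not overlap, and 2-octanone replicate 4 stood above the other three. The means were 8.94 ± 0.72 after 2-octanone, against 7.76 ± 0.34 after vehicle, a difference of 1.18 (SE 0.31) or 2.26-fold.

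Olfr1213 read 8.63, 7.99, 8.46 and 9.57 in GFP+ cells after 2-octanone, against 6.11, 8.45, 5.91 and 7.09 after vehicle. Vehicle replicate 2 lay above 2-octanone replicate 2, and vehicle replicates 1 and 3 were within 0.52 and 0.30 of background. The means were 8.66 ± 0.66 after 2-octanone, against 6.89 ± 1.16 after vehicle, a difference of 1.77 (SE 0.47) or 3.42-fold. Without vehicle replicate 2 it was 2.29, the highest value over 18 alternative settings.

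**Figure D1:**
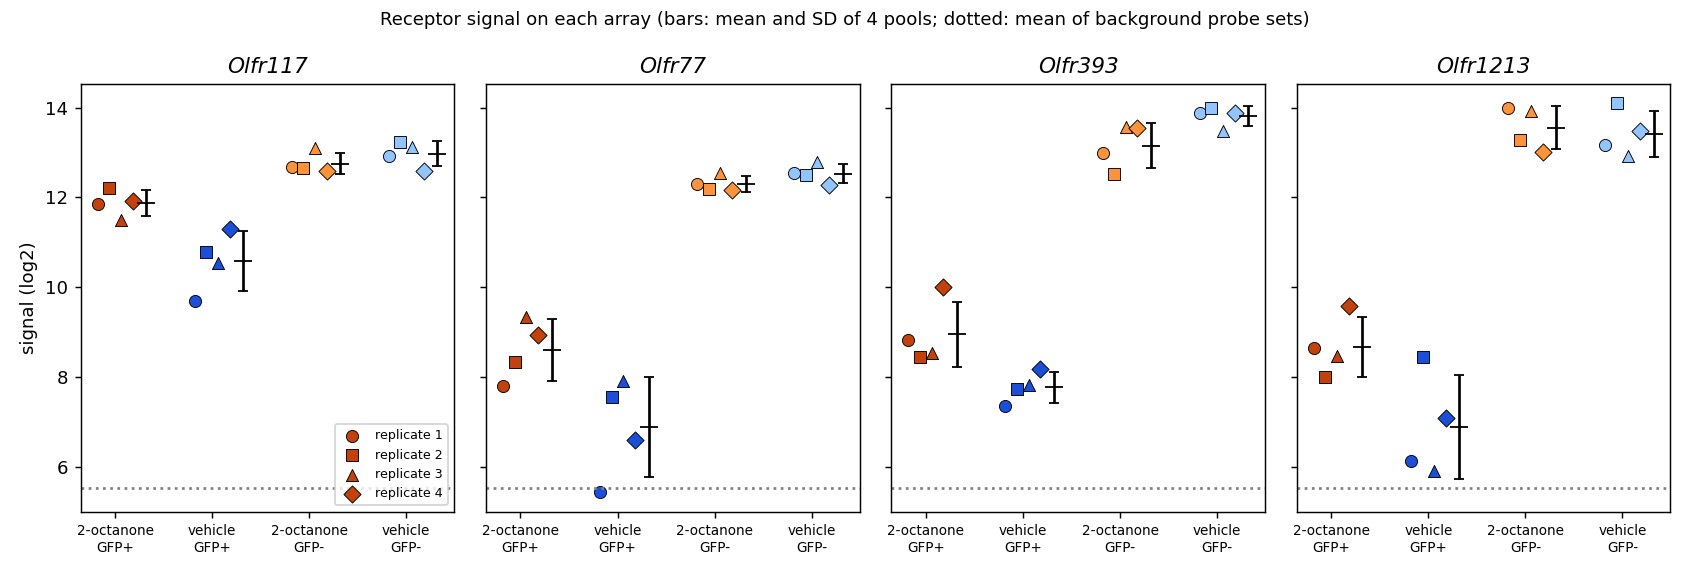
Signal (log2) of the 4 receptors on every array, by group, with symbols for the replicate number, bars for the mean and SD of 4 pools, and a dotted line at the mean of the background probe sets. In GFP+ cells the 2-octanone arrays of Olfr117 and Olfr393 all lie above the vehicle arrays, while those of Olfr77 and Olfr1213 overlap them.

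The groups thus did not overlap for 2 of the 4 receptors, where 0.93% of all probe sets had all 2-octanone GFP+ arrays above all vehicle GFP+ arrays. At an unadjusted p under 0.05, 1.76% of probe sets (345) and 3.24% of receptors (35) were higher, and 1.39% of probe sets (273) were lower. After Benjamini-Hochberg adjustment limma called 0 of 19572 probe sets (0%), with 618 at an unadjusted p under 0.05, and 0 in each of the 19 alternative settings. Across all 1081 receptors the median difference was -0.01. The differences of Olfr1213 and Olfr77 were the highest and second highest of all receptors, and those of Olfr117 and Olfr393 were the fifth and seventh. The next receptors by p among those higher, just outside the choice, were Olfr459 at 0.90 (SE 0.26), Olfr1384 at 1.43 (SE 0.41) and Olfr47 at 0.53 (SE 0.16).

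The same exposure comparison in GFP- cells used arrays that did not choose the receptors, although they come from the same pools. No receptor of the 4 was called there, and the differences ran from -0.66 to 0.14. Olfr117 read 12.68, 12.65, 13.10 and 12.58 in GFP- cells after 2-octanone, against 12.92, 13.24, 13.12 and 12.60 after vehicle, a difference of -0.22 (SE 0.26, 95% interval -0.78 to 0.34). Its groups overlapped (exact permutation p = 0.286, two-sided). Olfr77 read 12.30, 12.18, 12.54 and 12.15 after 2-octanone, against 12.53, 12.50, 12.79 and 12.27 after vehicle, a difference of -0.23 (SE 0.42, interval -1.11 to 0.65). Its groups overlapped as well (exact p = 0.200), and the SD was 0.17 after 2-octanone and 0.21 after vehicle (n = 4 each).

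Olfr393 read 12.98, 12.51, 13.57 and 13.53 in GFP- cells after 2-octanone, against 13.88, 13.99, 13.48 and 13.87 after vehicle. Its mean of 13.15 ± 0.50 after 2-octanone was below the 13.80 ± 0.23 after vehicle (SD, n = 4 each), a difference of -0.66 (SE 0.31, interval -1.31 to -0.01). The groups overlapped only through vehicle replicate 3, which lay below 2-octanone replicates 3 and 4. The exact permutation p was 0.0857, where 4 pools against 4 can give no less than 0.0286. Without 2-octanone replicates 3 and 4, an alternative chosen after seeing the data, the difference was -1.06, and with 1 pool left out it ran from -0.80 to -0.44, not called in any of these.

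Olfr1213 read 13.99, 13.28, 13.92 and 13.02 in GFP- cells after 2-octanone, against 13.16, 14.10, 12.92 and 13.48 after vehicle. The difference was 0.14 (SE 0.47, interval -0.85 to 1.13), the arrays were interleaved (exact p = 0.743), and the sign turned when 1 pool was left out (-0.010 without 2-octanone replicate 1 and -0.028 without vehicle replicate 3). Vehicle replicate 2, whose GFP+ array was the highest of the vehicle group, also gave the highest GFP- value. For all 4 receptors the adjusted p was 1.000 (limma, over 19572 probe sets), and in GFP- cells 0.00511% of probe sets were called. At an unadjusted p under 0.05 there was 1 of the 4 (Olfr393), and there were 2.44% of all probe sets (limma).

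Set against GFP- cells over both exposures, each of the 4 receptors was lower in the GFP+ fraction. This mean over exposures does not involve the difference that chose them. The limma fit took the 16 arrays as separate and did not pair the fractions of a pool. Olfr1213 differed by -5.71 (SE 0.33), or 52.2-fold lower (limma adjusted p = 1.90e-09, 16 arrays from 8 pools). Olfr393 differed by -5.12 (SE 0.22), or 34.8-fold lower (adjusted p = 1.61e-10). Olfr77 differed by -4.67 (SE 0.29), or 25.5-fold lower (adjusted p = 4.14e-09). Olfr117 differed by only -1.63 (SE 0.19), or 3.11-fold lower (adjusted p = 3.32e-06). Every GFP+ array lay below every GFP- array for each of the 4, as was so for 8.25% of all probe sets and 16.3% of receptors. Lower calls were made for 14% of probe sets and 25.9% of receptors, and higher calls for 16.7% of probe sets and 44.8% of receptors. Olfr1213, Olfr393 and Olfr77 ranked 4, 12 and 24 from the most negative difference among the 1081 receptors. All 4 kept the call in each of their 18 alternative settings.

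Within pools the GFP+ signal can be given as a percentage of the GFP- signal of the same mice, on the linear scale that log2 values imply. These values contain the contrast of the choice and are a description. How often such percentages part by exposure over all probe sets was not counted. For Olfr117 the GFP+ signal was 56.3%, 74.2%, 32.9% and 63.0% of the GFP- signal in the pools given 2-octanone, against 10.7%, 18.3%, 16.7% and 40.7% in those given vehicle. The exposures overlapped, since 2-octanone replicate 3 lay below vehicle replicate 4. For Olfr77 it was 4.38%, 6.94%, 10.9% and 10.7% after 2-octanone, against 0.726%, 3.26%, 3.40% and 1.94% after vehicle. The exposures did not overlap, and the lowest value was that of the vehicle pool at background.

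For Olfr393 the GFP+ signal was 5.56%, 5.995%, 3.03% and 8.58% of the GFP- signal after 2-octanone, against 1.08%, 1.30%, 1.97% and 1.93% after vehicle. For Olfr1213 it was 2.43%, 2.56%, 2.28% and 9.16% after 2-octanone, against 0.759%, 1.99%, 0.773% and 1.19% after vehicle. The 0.759% and 0.773% come from GFP+ arrays within 0.52 and 0.30 (log2) of background, which was not subtracted. Neither receptor's exposures overlapped, with no share over all probe sets to set beside it, and 2-octanone replicate 4 was highest for both. In all 8 pools, and for all 4 receptors, the GFP+ signal stayed below that of the GFP- cells.

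**Figure D2:**
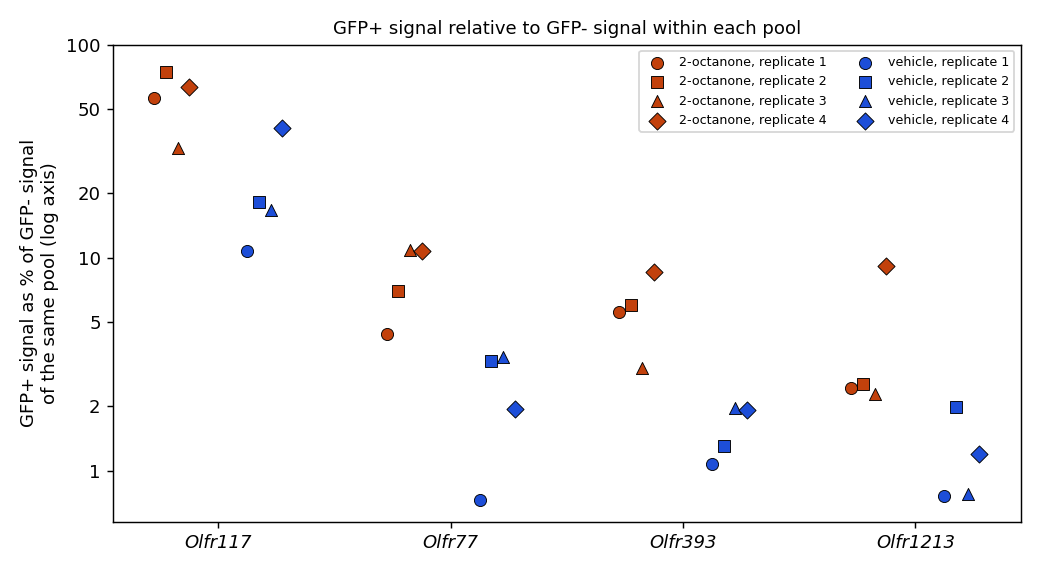
GFP+ signal as a percentage of the GFP- signal of the same pool (log axis) for the 4 receptors, with 2-octanone pools left of vehicle pools and symbols for the replicate number. Olfr117 lies between 10.7% and 74.2% and the other three receptors between 0.726% and 10.9%.

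Receptors that were low in GFP+ cells tended to be higher after 2-octanone there, and the 3 members with the largest deficits lie among them. Of 143 other receptors over 2 (log2) lower in GFP+ than in GFP- cells, 106 had a positive difference between 2-octanone and vehicle in GFP+ cells (median 0.25). Of 785 receptors within 2 in either direction 347 were positive (median -0.03), and of 149 over 2 higher 59 were (median -0.06).

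Genes listed by cell type were set beside this pattern, and whether cells carried over between the fractions had a part in it was not tested. All 10 genes of a neutrophil list had positive differences between 2-octanone and vehicle in GFP+ cells (median 1.77). None of the 10 was called, and 4 were at an unadjusted p under 0.05. Their mean signal in GFP+ cells was 7.15, 7.20, 9.66 and 12.35 after 2-octanone, against 7.22, 7.30, 6.67 and 8.30 after vehicle, so that 2-octanone replicates 3 and 4 stood above the rest. In GFP- cells it was 14.21 to 15.89 after 2-octanone, against 14.39 to 15.47 after vehicle. Signals below background in GFP+ cells were seen for 2 of the 10 genes in 2-octanone replicate 1 and for 1 each in vehicle replicates 1 and 3. The mean signal of 7 immature neuron genes in GFP+ cells did not part in this way (10.09 to 10.52 after 2-octanone, against 10.05 to 10.49 after vehicle). That of 4 dividing cell genes was 5.19, 5.30, 5.94 and 5.94 after 2-octanone, against 5.72, 5.12, 4.96 and 5.08 after vehicle, near the background, with 1 to 3 of the 4 genes below it on each GFP+ array. Genes of 2 other cell types mostly had negative differences between the exposures in GFP+ cells. Of 6 sustentacular genes 1 was positive (median -0.36), and of 5 macrophage genes 2 were (median -0.42), none called and none at an unadjusted p under 0.05. Their median differences between the fractions (GFP+ minus GFP-) were -0.95 for sustentacular and -1.17 for macrophage genes, against -7.04 for neutrophil genes. The median was -2.60 for the immature neuron genes (5 of 7 called lower) and -3.29 for the dividing cell genes (4 of 4 called lower).

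Without 2-octanone replicates 3 and 4, an alternative chosen after seeing the data, the median of the 143 receptors was -0.14, with 60 positive. That of the 149 receptors over 2 higher was 0.28, with 125 positive. The members' differences were then 1.45 for Olfr117, 1.42 for Olfr1213, 1.19 for Olfr77 and 0.87 for Olfr393. The arrays that remain took part in the choice of the members, so these values too are a description. The 2 remaining 2-octanone pools had neutrophil levels within the range of the vehicle pools, and each comparison rests on them alone.

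**Figure D3:**
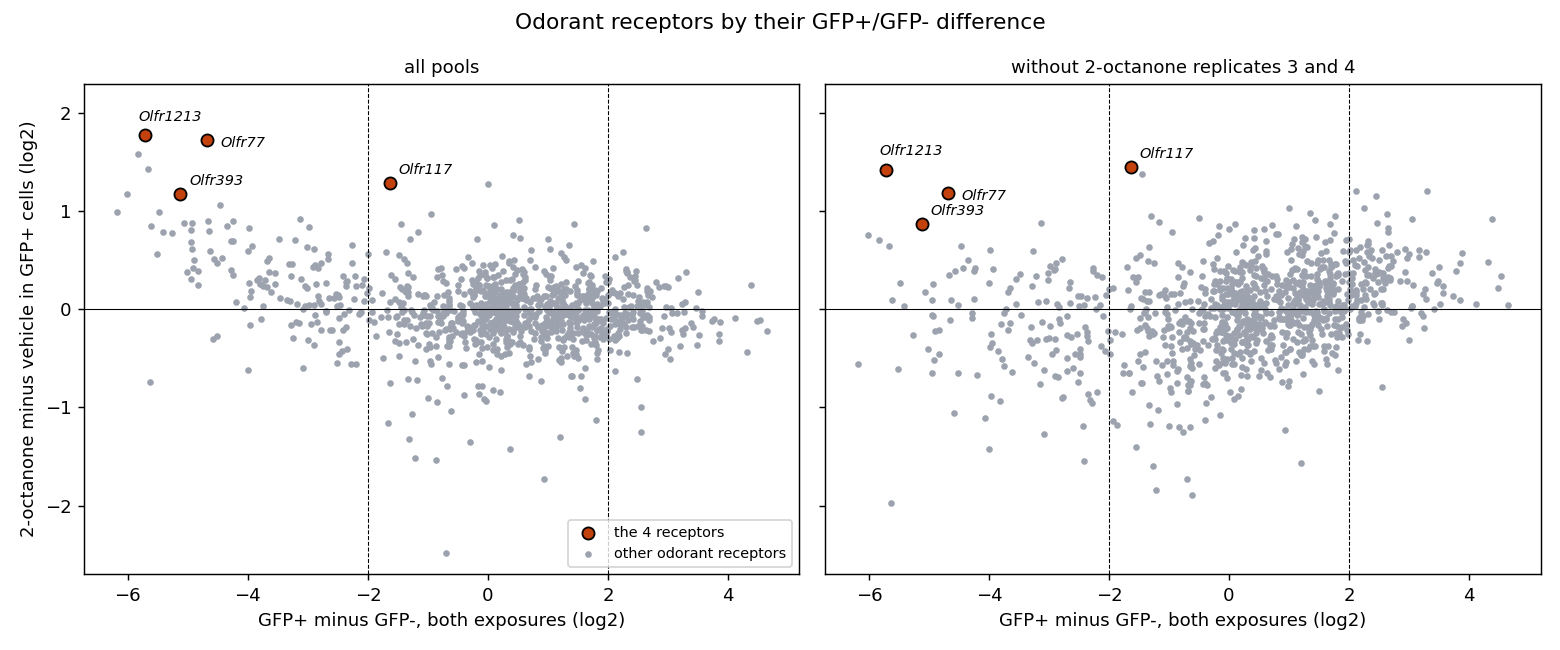
Difference between 2-octanone and vehicle in GFP+ cells (log2) against the difference of the fractions (GFP+ minus GFP-, log2, mean of both exposures), 1 point per odorant receptor, with dashed lines at 2 in either direction. With all pools the receptors low in GFP+ cells lie mostly above 0 (106 of 143), and without 2-octanone replicates 3 and 4 they do not (60 of 143). The 4 receptors, chosen on the difference drawn upwards, are marked.

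Odorant receptor genes lie in clusters, and the 3 receptor genes on each side of a member were taken by their order in RefSeq. In GFP+ cells 0 of these 24 neighbours were called between 2-octanone and vehicle (limma), with 1 higher and 1 lower at an unadjusted p under 0.05. At that level 3.24% of all receptors were higher and 2.04% lower. The median difference of the neighbours was -0.02, with 11 of 24 positive. The members were chosen on this difference and their neighbours were not, so the values side by side are a description. Around Olfr77 the neighbours ran from -0.73 (Olfr867) to 0.31 (Olfr862, whose mean was below background in GFP+ cells after either exposure), against 1.72 for Olfr77. Around Olfr1213 they ran from -0.30 to 0.79, the highest being Olfr1215 (SE 0.51), against 1.77 for Olfr1213.

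Around Olfr117, 5 of 6 neighbours were positive, up to 0.80 for Olfr116 (SE 0.45), which like Olfr117 was lower in GFP+ than in GFP- cells (-4.65). Olfr115, the next gene beyond Olfr116, was at -0.54. Around Olfr393 the neighbours on one side were all positive, with Olfr390 at 1.58 (SE 0.49, unadjusted p = 0.00483, limma), Olfr391 at 0.61 and Olfr392 at 0.48. Those on the other side were all negative, with Olfr394 at -0.62 (SE 0.27, unadjusted p = 0.0351, limma), Olfr395 at -0.53 and Olfr23 at -0.24. Olfr395 averaged 4.13 in GFP+ cells after 2-octanone and 4.66 after vehicle, both below background, and Olfr391 was below it after vehicle (5.13). The first 3 were also far lower in GFP+ than in GFP- cells (-5.82, -2.90 and -4.51), Olfr395 was lower by a smaller amount (-0.96), and Olfr394 (0.22) and Olfr23 (0.09) were not called in that comparison.

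**Figure D4:**
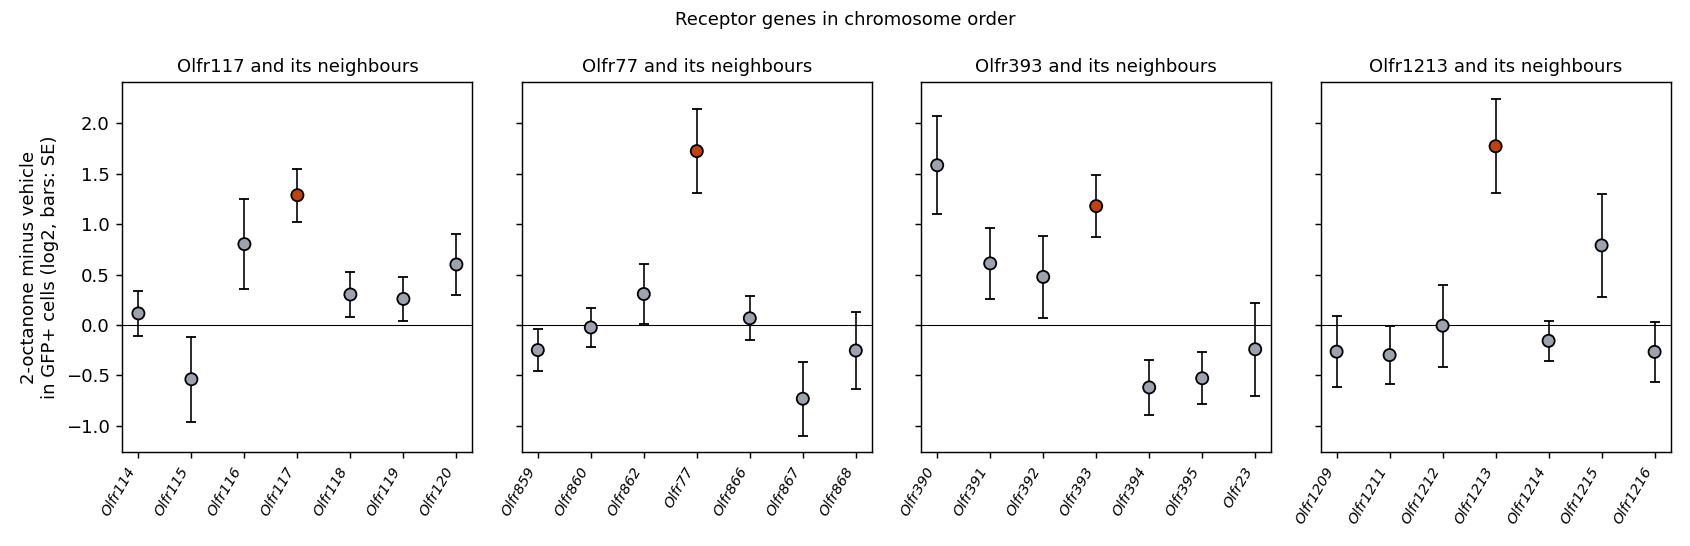
Difference between 2-octanone and vehicle in GFP+ cells (log2, bars are SE) for each of the 4 receptors (dark) and the 3 receptor genes on each side (grey), in chromosome order. Olfr117 (1.29), Olfr77 (1.72) and Olfr1213 (1.77) stand above all their neighbours, while Olfr390 (1.58) lies above Olfr393 (1.18).

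Receptors of the same MOR family are close in sequence, and 82 others of the 4 families were measured. Some of these are also cluster neighbours, Olfr390 and Olfr394 among them, so the counts for neighbours and relatives share genes. None of the 82 was called in GFP+ cells, 9 were higher and 2 lower at an unadjusted p under 0.05, and 46 were positive (median 0.06). At that level 1.76% of all probe sets and 3.24% of all receptors were higher, and 1.39% and 2.04% were lower. Of 49 others in MOR256, the family of Olfr117, 4 were higher and 1 lower at that level. Olfr1384 was at 1.43 (SE 0.41), Olfr130 at 0.72 (SE 0.25), Olfr1383 at 0.47 and Olfr132 at 0.46, and Olfr123 was at -0.47. Of 16 others in MOR135, the family of Olfr393, 4 were higher (Olfr390 at 1.58, Olfr381 at 0.58, Olfr1 at 0.57 and Olfr380 at 0.47) and 1, Olfr394, lower. The 4 that were higher had less signal in the GFP+ fraction, from -1.69 for Olfr381 to -5.82 for Olfr390, and 11 of the 16 were called lower. Of 16 others in MOR233, the family of Olfr1213, Olfr1221 was higher (1.27, SE 0.53), and Olfr867, the only other measured receptor of MOR143, was at -0.73 against 1.72 for Olfr77. Whether probe sets of close relatives share signal was not tested.

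In GFP- cells 1 of the 82 relatives was called, and it was the only gene called there. Olfr123, a MOR256 receptor, averaged 7.25 ± 0.18 in GFP- cells after 2-octanone, against 8.83 ± 0.34 after vehicle (SD, n = 4 each). The difference was -1.58 (SE 0.21, limma adjusted p = 0.0289), against -0.22 for Olfr117. It was called in 8 of its 18 alternative settings, over which the adjusted p ran from 0.0117 to 0.577, and leaving out any 1 of 6 pools, among them all 4 given 2-octanone, ended the call. In MOR256, Olfr130 and Olfr132 differed by -0.57 and -0.54 in GFP- cells, at an unadjusted p under 0.05 and not called.

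The genes whose mean-centred signals over the 16 arrays differed least from a member's were found by the root mean square difference, a description with no test. Nearest to Olfr77 were the receptors Olfr794 (0.56 log2) and Olfr1042 (0.58), and nearest to Olfr1213 were Olfr1384 (0.57) and Olfr677 (0.59). Nearest to Olfr393 were the receptor Olfr99 (0.48) and Ifitm3 (0.50), an interferon-induced membrane protein gene. Nearest to Olfr117 were Gm7609 (0.49) and Cd7 (0.49), a lymphocyte surface protein gene. Cd7 averaged 4.49 in GFP+ cells after 2-octanone and 3.99 after vehicle, below background, and Gm7609 was at it after vehicle (5.48). All 8 had negative differences between the fractions (GFP+ minus GFP-) and positive differences between 2-octanone and vehicle in GFP+ cells, from 0.50 for Olfr794 to 1.43 for Olfr1384. These signs are those of the members that the genes were matched to, on arrays that include those of the choice. The members were closest to each other for Olfr77 and Olfr393 (0.72) and farthest for Olfr117 and Olfr1213 (2.14).

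No gene of the machinery that carries a receptor's signal was called between the exposures. Of 20 measured genes of odorant transduction and receptor trafficking, 0 passed in GFP+ cells and 0 in GFP- cells, and none of them had an unadjusted p under 0.05 in either (limma). In GFP+ cells their differences ran from -0.22 for Grk3, a receptor kinase gene, to 0.11 for Reep1, a receptor trafficking gene. Between GFP+ and GFP- cells 10 of the 20 were called higher and 1 lower, where 16.7% of all probe sets were higher and 14% lower. Among them were the phosphodiesterase gene Pde1c at 0.72 and the chloride channel gene Ano2 at 0.53, with Grk3 at -0.75. Grk3 was near background in GFP+ cells, at 5.64 after 2-octanone and 5.86 after vehicle. With each array centred on its median, every difference between GFP+ and GFP- cells is raised by the same amount, and the median of all probe sets moved to 0.41 from 0.13. Under that scaling Olfr117 differed by -1.36, Olfr77 by -4.40, Olfr393 by -4.84 and Olfr1213 by -5.43.

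S100a5 averaged 16.09 in GFP+ cells after 2-octanone, against 15.72 after vehicle, a difference of 0.37 (SE 0.85) that was not called (limma adjusted p = 1.000). The SD of S100a5 in GFP+ cells was 1.45 after 2-octanone and 1.67 after vehicle, with lowest arrays at 13.92 and 13.22. In GFP- cells S100a5 averaged 15.19 ± 1.09 after 2-octanone, against 14.96 ± 1.24 after vehicle (SD). The lowest arrays there read 13.55 and 13.11. Between the fractions (GFP+ minus GFP-, both exposures) S100a5 differed by 0.83 (SE 0.60), which was not called (limma adjusted p = 0.304). That fit did not pair the fractions of a pool, so differences between pools are part of its SE. The missing call therefore does not show equal S100a5 in the fractions. Omp, a gene of mature olfactory sensory neurons, averaged 18.41 in GFP+ cells after 2-octanone and 18.38 in GFP+ cells after vehicle. The mean of 10 mature neuron genes, Omp among them, was 16.06 to 16.28 in GFP+ cells after 2-octanone, against 16.13 to 16.19 after vehicle. In GFP- cells it was 15.77 to 15.99 after 2-octanone, against 15.52 to 15.98 after vehicle. The 7 activity-dependent neuron genes were all positive after 2-octanone in GFP+ cells (median 0.44, 3 at an unadjusted p under 0.05, none called), and 5 of the 7 were in GFP- cells (median 0.23, 1 at an unadjusted p under 0.05, none called).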

How the data were processed

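The authors' deposited table holds 1 signal per probe set and array, read as log2 from its range (2.13 to 18.99). Per the submitters' processing notes it was made with Affymetrix Expression Console. The normalisation algorithm, log base and genome build are not given in the sources used here. Biotinylated cRNA came from 50 to 100 ng of RNA, per the labels' protocols. Of 28846 probe sets, 6640 controls and 2634 without a gene name were left out. The remaining 19572 were named through Entrez identifiers, all found in RefSeq.

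All 16 arrays were fitted on the 4 group means with limma 3.58.1 (R 4.3.3, lmFit and eBayes, 12 residual and 4.19 prior degrees of freedom). Tests were two-sided, with Benjamini-Hochberg adjustment over 19572 probe sets and a threshold of 0.05. The fit was tested on simulated data. The number of arrays limits the precision. The labels describe the replicates as separate pools of mice.

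The members and lists were chosen with earlier results of these data known. Named genes were the members, their neighbours, relatives and nearest patterns, the next receptors by p, S100a5, Omp and transduction genes. Relatives were planned by protein identity. No protein table was used here, so the MOR family replaced it after the files were seen, and relatives are named where the unadjusted p was under 0.05. Of several probe sets of a gene, the brightest on average is described. Alternatives were other scalings, filters and limma options, left-out pools, and the replicate number or pool as a block.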

Additional observations from a re-analysis of the deposited data

How the results depend on the processing

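The 4 receptors kept their positive difference in GFP+ cells in 18 alternatives each, from 0.99 to 1.53 for Olfr117, 1.19 to 2.07 for Olfr77, 0.83 to 1.34 for Olfr393 and 1.42 to 2.29 for Olfr1213. In GFP- cells none was called in any of them, and Olfr1213 ran from -0.028 to 0.36 with 1 pool left out (-0.010 without 2-octanone replicate 1). The lowest adjusted p there over these alternatives was 0.931. The 1 probe set called in GFP- cells became 0 to 2 when 1 pool was left out, 0 with only the groups compared and 0 with the replicate number as a block. Over receptors alone the counts were the same. Between GFP+ and GFP- cells 6000 probe sets were called, 15141 after median centring, and 3664 without dim probe sets, where fewer were tested. Centring raises every difference in that comparison alike.

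Residuals of same-numbered arrays of both exposures correlated at 0.19, 0.17, 0.26 and 0.43 in the GFP+ fraction, and at 0.34, -0.06, 0.35 and 0.52 in the GFP- fraction, so pairing by number was not settled. The block changed no call of the 4 receptors, and its adjusted p in GFP- cells was 0.998 for each. It left Olfr123 uncalled (0.0913). The differences of Olfr77 between same-numbered pools in GFP- cells were -0.23, -0.32, -0.25 and -0.12, which the unpaired permutation test does not use. With pools as blocks, pairing both fractions of the same mice, all 4 stayed lower in GFP+ cells. The limma adjusted p was then 4.32e-05 for Olfr117, 4.32e-08 for Olfr77, 2.82e-09 for Olfr393 and 9.02e-09 for Olfr1213.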
